A study of Mus musculus with 2 samples.

Results

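The transcripts described here are those of 10 mouse liver genes that encode serum amyloid A proteins and other positive acute phase proteins: Saa1, Saa2, Saa3, Saa4, Orm1, Orm2, Hp, Hpx, Lcn2 and Itih3. They are 10 of 22803 named genes on the arrays, found by the gene name printed in both scanner files, and each is read by 1 probe with 1 spot on each array. The genes were chosen by their measured values, that is, by the ratio of treated to untreated liver on each array, the levels in each channel and the contrast of the untreated livers. All their values below are therefore descriptions, with no test.

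Gene expression was measured on 2 Agilent 2-colour arrays, 1 per genotype. The 4 liver RNA samples were untreated wild-type, wild-type with thioacetamide, untreated AID transgenic and AID transgenic with thioacetamide, all on the C57BL/6 background, and the treatment lasted 6 months in the drinking water. Thioacetamide is a hepatotoxin that hepatocytes convert to reactive metabolites and that is widely used to cause chronic liver injury and fibrosis. AID, activation-induced cytidine deaminase, is the B cell enzyme that deaminates cytosine in immunoglobulin genes. On each array the treated liver was labelled with Cy5 and the untreated liver with Cy3, so Cy5 over Cy3 is treated over untreated, and no array had the dyes swapped. The labels used here do not state the promoter that drives the AID transgene, the sex and age of the mice or whether a channel held RNA of 1 mouse or of a pool.

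The acute phase response is the change in plasma proteins that the liver makes during inflammation. Interleukin-6 signals through Stat3 and interleukin-1 through NF-kappaB and C/EBP factors in hepatocytes, which raises the transcription of the positive acute phase genes and lowers that of negative ones such as albumin. In mice, Saa1 and Saa2 are the major inducible serum amyloid A genes of the liver, and their products travel on high-density lipoprotein. Saa3 is the mouse form also made outside hepatocytes, in macrophages and adipose tissue, and Saa4 encodes the constitutive form. Whether a difference in RNA of whole liver reflects fewer cells of a type or less RNA per cell cannot be told apart.

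With 1 array per genotype there was no replicate of any liver, so no p-value is given. The ± beside a log2 value is the error that the scanner software assigned to the spot, which describes the hybridisation and scan and not the spread between mice. As a further guide, 399 probes were spotted 10 times on each array, and the median SD of their log2 ratios was 0.07 on either array. A gene is called higher or lower here at a 2-fold size, a log2 value of 1 or more from 0, where a probe was well above background in at least 1 channel.

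The sex-linked transcripts did not match between the livers of the wild-type array, and this bears on every value that uses the treated wild-type liver. For Xist, the X-inactivation RNA, the treated wild-type sample was at least 6.36-fold higher than its untreated counterpart. The Y-linked Ddx3y and Eif2s3y were at least 17.6-fold and 32.1-fold lower there. On the AID transgenic array the log2 ratios were -0.11 ± 0.20 for Ddx3y and -0.05 ± 0.20 for Eif2s3y, and between the untreated livers of the 2 genotypes they were 0.10 ± 0.20 and -0.06 ± 0.20. The wild-type treatment ratio, the treated contrast of genotypes and the difference between the 2 arrays are thus not a comparison of livers with matched sex-linked transcripts, while the AID transgenic treatment ratio and the untreated contrast are. The part of this mismatch in the values below was not tested.

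The arrays held 43020 non-control spots, of which between 53.9% and 68.8% per channel were well above background. All 10 probes were well above background in all 4 channel values, and none was saturated. All 8 hepatocyte markers, Alb among them, were well above background in all 4 samples.

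The 4 serum amyloid genes are neighbours. Their probes lie on chromosome 7 between positions 53970389 and 54009681 of mm9, the build of the scanner files, a span of 39293 bases, in the order Saa3, Saa4, Saa1 and Saa2, with the Saa2 probe on the plus strand and the other 3 on the minus strand. The Orm1 and Orm2 probes lie on chromosome 4, on the plus strand. The other probes lie on chromosome 8 for Hp, 7 for Hpx, 2 for Lcn2 and 14 for Itih3. Because paralogs can share hybridisation signal, probe sequences of 4 of these genes, Saa1, Saa3, Orm1 and Orm2, are shown as given in the scanner files, 5′ to 3′, to show the stretch that each value reads.
Saa1 probe, chr7:53996070-53996129, minus strand: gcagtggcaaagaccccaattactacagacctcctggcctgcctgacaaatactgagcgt
Saa3 probe, chr7:53970389-53970448, minus strand: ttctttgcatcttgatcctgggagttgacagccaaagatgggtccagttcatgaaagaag
Orm1 probe, chr4:63006483-63007090, plus strand: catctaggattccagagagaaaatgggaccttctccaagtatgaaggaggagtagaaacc
Orm2 probe, chr4:63024979-63025038, plus strand: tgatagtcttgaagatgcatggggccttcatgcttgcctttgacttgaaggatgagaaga
Each probe has 60 bases. The Orm1 probe covers 608 bases of the genome, so its target crosses an intron. Aligned to each other, the Orm1 and Orm2 probes shared 34 of 68 positions and the Saa1 and Saa2 probes 25 of 66, so the probes of a pair read different stretches of their transcripts. How far a probe also binds the transcript of the neighbouring gene was not tested, since transcript sequences were not used here.

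The upstream sequences show how alike the serum amyloid promoters are. RefSeq start sites on GRCm38.p6, a later build whose positions do not match those of the probes, gave a promoter for 8 of the 10 genes; Hp and Orm1 had no entry. The 250 bases before the start sites of Saa1 and Saa2 were identical at 238 of 251 aligned positions, or 94.8%. The other pairs of serum amyloid promoters were identical at 42.6% to 48.9% of aligned positions. The 200 bases before the start site are shown for the 4 serum amyloid genes and Orm2, with capitals at matches to TTNNGCAA, a core of the C/EBP consensus searched on both strands.
Saa1, chr7:46742981-46743180, minus strand: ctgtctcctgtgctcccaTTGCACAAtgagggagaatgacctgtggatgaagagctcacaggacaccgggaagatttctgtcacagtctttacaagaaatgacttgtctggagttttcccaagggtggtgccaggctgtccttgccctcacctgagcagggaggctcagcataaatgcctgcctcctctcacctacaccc
Saa2, chr7:46751633-46751832, plus strand: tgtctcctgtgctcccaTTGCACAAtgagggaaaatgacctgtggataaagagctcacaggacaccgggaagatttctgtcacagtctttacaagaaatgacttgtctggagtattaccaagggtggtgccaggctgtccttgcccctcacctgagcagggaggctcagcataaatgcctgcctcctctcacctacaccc
Saa3, chr7:46715677-46715876, minus strand: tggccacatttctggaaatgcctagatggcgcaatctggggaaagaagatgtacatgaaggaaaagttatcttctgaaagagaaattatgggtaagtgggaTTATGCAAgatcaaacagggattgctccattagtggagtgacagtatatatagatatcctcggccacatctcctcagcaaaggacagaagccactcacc
Saa4, chr7:46732604-46732803, minus strand: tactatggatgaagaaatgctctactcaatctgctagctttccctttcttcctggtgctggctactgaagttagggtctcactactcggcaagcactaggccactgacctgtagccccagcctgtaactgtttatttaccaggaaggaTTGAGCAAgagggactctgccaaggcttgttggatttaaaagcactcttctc
Orm2, chr4:63362249-63362448, plus strand: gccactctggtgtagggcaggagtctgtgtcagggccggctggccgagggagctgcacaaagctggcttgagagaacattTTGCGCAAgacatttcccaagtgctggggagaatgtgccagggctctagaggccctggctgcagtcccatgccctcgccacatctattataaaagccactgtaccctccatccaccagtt
A match lay in 7 of the 8 promoters, all but that of Itih3, against 9.56% of 32851 mouse promoters in the same table. It began 182 bases before the start site in Saa1, 183 in Saa2, 99 in Saa3, 120 in Orm2, 216 in Lcn2 and 200 in Hpx, and Saa4 held matches that began 52 and 245 bases before it. No promoter of the 8 held TTCNNNGAA, the STAT core, or GGGANTTNC, an NF-kappaB core, on either strand, against 7.02% and 3.54% of all promoters. These matches are letters in a fixed window, and binding to them was not measured.

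Saa1 and Saa2 moved in opposite directions on the 2 arrays. The log2 level of Saa1 was 14.31 in the untreated wild-type liver, 12.18 in the treated wild-type liver, 12.03 in the untreated AID transgenic liver and 13.83 in the treated AID transgenic liver. Saa2 stood at 14.32, 11.84, 11.60 and 14.11 in the same order. For either gene the untreated wild-type and the treated AID transgenic livers were high and the remaining livers low. The gap in the middle of the order was 1.66 for Saa1 and 2.27 for Saa2 with loess. The neighbours at the low end of Saa1, treated wild-type and untreated AID transgenic, differed by 0.15 with loess, less than the software error of 0.20. With median centring these livers stood at -1.39 and -2.26 for Saa1 and -1.75 and -2.70 for Saa2, each relative to untreated wild-type. The AID transgenic treatment ratios were then 2.51 and 3.21, which put the treated AID transgenic liver highest. The order within the high and the low livers thus depends on the normalization.

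Expressed as ratios, Saa1 was 4.37-fold lower with treatment in the wild-type pair, a log2 ratio of -2.13 ± 0.28. In the AID transgenic livers it was 3.49-fold higher with treatment, a log2 ratio of 1.80 ± 0.27. Saa2 was 5.58-fold lower in the wild-type pair and 5.67-fold higher in the AID transgenic pair, with log2 ratios of -2.48 ± 0.31 and 2.504 ± 0.31. The ratios of the 2 genes differed from each other by 0.35 on the wild-type array and 0.70 on the AID transgenic array, well under the distance between the arrays.

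**Figure D1:**
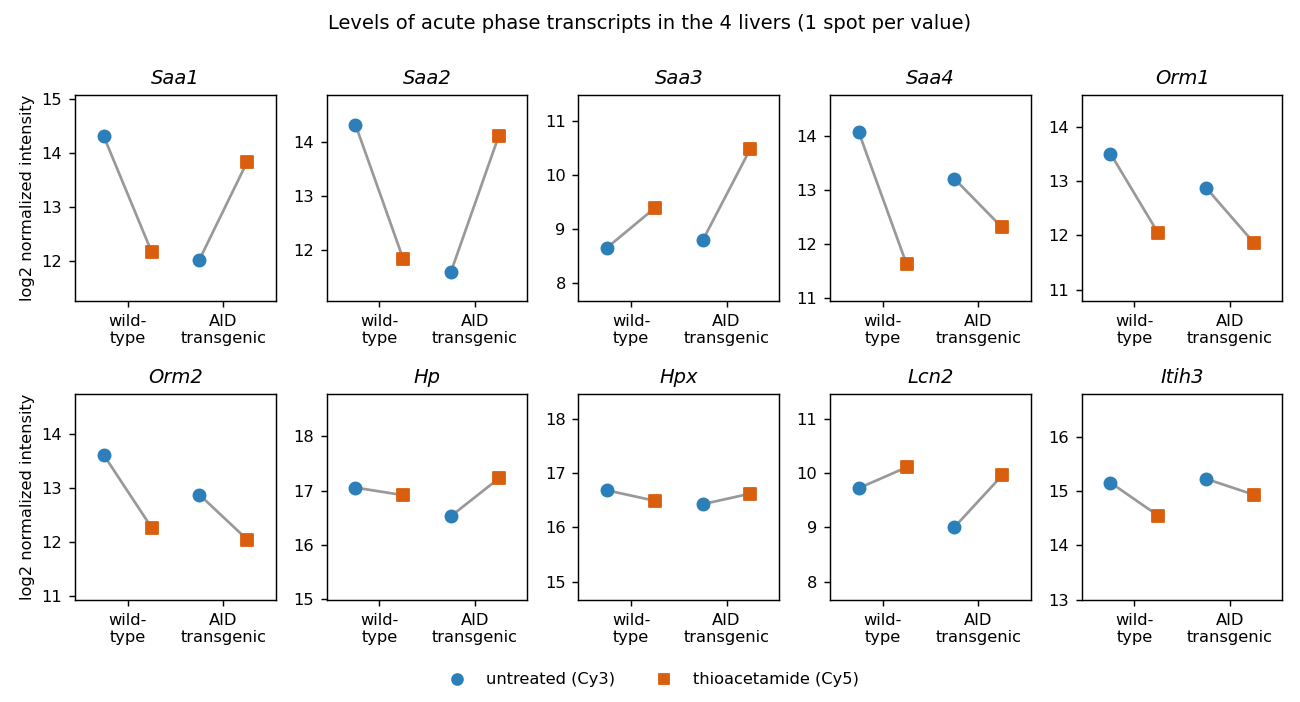
Normalized log2 intensity of each of the 10 genes (panels) in the 4 liver samples: blue circles are untreated livers in Cy3, orange squares treated livers in Cy5, and a line joins the samples of 1 array. Every panel spans the same log2 range around its own middle; Saa1 and Saa2 fall from 14.31 and 14.32 in the untreated wild-type liver and rise to 13.83 and 14.11 in the treated AID transgenic liver.

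Much of that contrast lay in the untreated livers. Without thioacetamide, Saa2 was 6.56-fold lower in the AID transgenic than in the wild-type liver, a log2 difference of -2.71 ± 0.20, and Saa1 was 4.84-fold lower at -2.28 ± 0.20. These were the lowest and the next lowest values of 14309 genes measured in the untreated livers, as ranks 1 and 2. With thioacetamide the order turned, and Saa2 was 4.82-fold and Saa1 3.15-fold higher in the AID transgenic liver, at 2.27 ± 0.20 and 1.66 ± 0.20.

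The difference between the treatment log2 ratios of the 2 arrays, AID transgenic minus wild-type, was 3.93 ± 0.39 for Saa1 and 4.98 ± 0.44 for Saa2. By arithmetic it equals the treated minus the untreated contrast of genotypes. The untreated contrast supplied 57.9% of it for Saa1 and 54.5% for Saa2. In rank from the highest, Saa2 was 3 and Saa1 was 9 of 17120 genes.

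Saa3 behaved unlike its neighbours. Its log2 level was 8.66 in untreated and 9.39 in treated wild-type liver, and 8.79 in untreated and 10.48 in treated AID transgenic liver. The untreated livers were the lowest on each array and differed from each other by 0.13 ± 0.21, within the error. Treated over untreated, the Saa3 signal was 1.66-fold higher in wild-type, below the 2-fold size, and 3.23-fold higher in AID transgenic liver. The log2 ratios were 0.73 ± 0.22 and 1.69 ± 0.27. The treated AID transgenic liver was 2.13-fold above the treated wild-type liver, a log2 difference of 1.09 ± 0.20.

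With loess, Saa4 was lower with treatment in both genotypes. Its log2 level was 14.06 in untreated and 11.63 in treated wild-type liver, and 13.21 in untreated and 12.31 in treated AID transgenic liver. The ratio was 5.39-fold lower on the wild-type array, at -2.43 ± 0.30, and 1.87-fold lower on the AID transgenic array, at -0.90 ± 0.22, where it missed the 2-fold size. With median centring the ratios were -1.71 and -0.20, the second within its error of 0.22. The untreated AID transgenic liver was below the untreated wild-type liver by a log2 difference of -0.86 ± 0.20 and the treated one above its counterpart by 0.67 ± 0.20, so the arrays differed by 1.53 ± 0.37.

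Orm1 and Orm2 encode alpha-1-acid glycoprotein, the orosomucoid that binds lipophilic molecules in plasma. The log2 level of Orm1 was 13.51 in untreated and 12.04 in treated wild-type liver, and 12.88 in untreated and 11.86 in treated AID transgenic liver. That of Orm2 was 13.61 and 12.27 in wild-type and 12.88 and 12.05 in AID transgenic liver. With loess, both untreated livers were above both treated livers for either gene, and the untreated wild-type liver was the highest. With median centring, Orm2 stood at -0.71 in the untreated AID transgenic and -0.61 in the treated wild-type liver, each relative to untreated wild-type. The order of these livers thus depends on the normalization.

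Treated over untreated, Orm1 was 2.77-fold lower in wild-type and 2.02-fold lower in AID transgenic liver, at -1.47 ± 0.24 and -1.01 ± 0.22. Orm2 was 2.53-fold and 1.77-fold lower, at -1.34 ± 0.24 and -0.83 ± 0.22. With median centring none of these passed 2-fold, at -0.75 and -0.32 for Orm1 and -0.61 and -0.13 for Orm2, the last within the spot error. The ratios of the pair were within 0.19 of each other on either array. Between genotypes the untreated livers differed by -0.63 ± 0.20 for Orm1 and -0.73 ± 0.20 for Orm2 and the treated livers by -0.18 ± 0.20 and -0.22 ± 0.20. The gap between the arrays, 0.45 ± 0.33 and 0.51 ± 0.32, thus lay in the untreated livers.

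**Figure D2:**
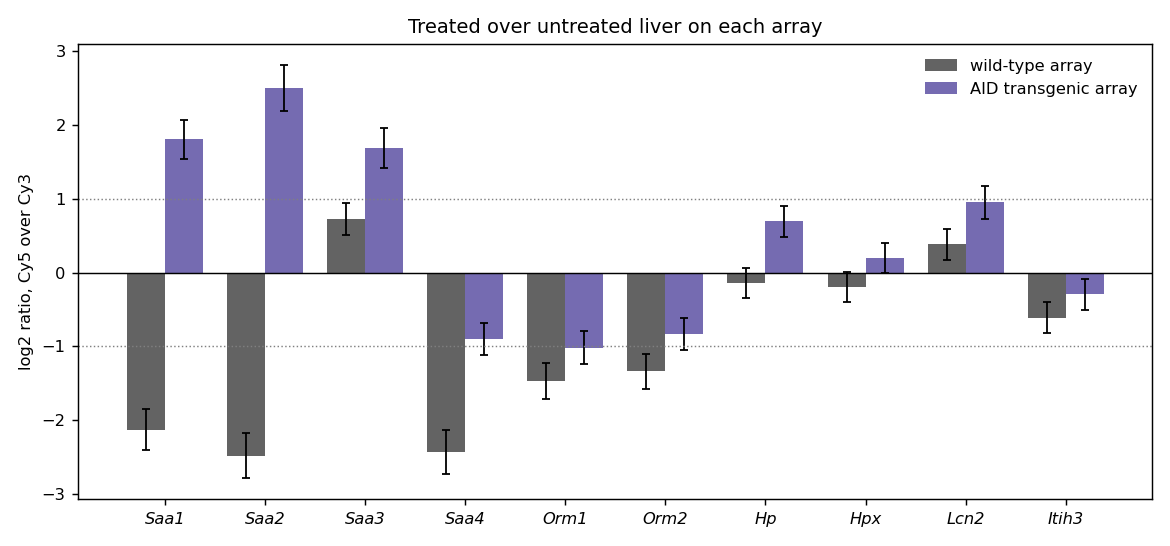
Log2 ratio of treated over untreated liver (Cy5 over Cy3) for each gene on the wild-type array (grey) and the AID transgenic array (purple); error bars are the scanner software's error of the spot and dotted lines mark 2-fold. The bars of Saa1 and Saa2 point down on the wild-type array (-2.13 and -2.48) and up on the AID transgenic array (1.80 and 2.504). Those of Saa4, Orm1 and Orm2 point down on both. With median centring in place of loess these directions hold, but on the AID transgenic array Saa4 (-0.20) and Orm2 (-0.13) lie within the spot error. Orm1 and Orm2 then no longer reach 2-fold on either array. The wild-type bars of Hp, Hpx and Itih3 and the AID transgenic bar of Itih3 then turn upward.

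Haptoglobin and hemopexin, which clear free haemoglobin and haem from plasma, stayed within 2-fold on both arrays with loess. The log2 level of Hp was 17.06 in untreated and 16.92 in treated wild-type liver, and 16.53 in untreated and 17.23 in treated AID transgenic liver. Hpx stood at 16.68 and 16.49 in wild-type and 16.43 and 16.62 in AID transgenic liver. For Hp with loess, only the untreated AID transgenic liver was set apart from the next by more than the error. For Hpx no neighbouring livers were set apart with loess.

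The treatment ratio of Hp was -0.14 ± 0.21 in wild-type and 0.69 ± 0.21 in AID transgenic liver, and that of Hpx -0.19 ± 0.21 and 0.20 ± 0.20. With median centring in place of loess the ratios were 0.74 and 1.52 for Hp and 0.67 and 1.01 for Hpx. Both genes then passed 2-fold on the AID transgenic array. The sign of the wild-type ratio thus turns with the normalization. The difference between the arrays did not, at 0.83 ± 0.29 for Hp and 0.39 ± 0.29 for Hpx with loess and 0.78 and 0.34 with median centring.

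Lcn2 encodes lipocalin 2, which binds bacterial siderophores. Its log2 level was 9.72 in untreated and 10.11 in treated wild-type liver, and 9.004 in untreated and 9.96 in treated AID transgenic liver. The untreated AID transgenic liver was the lowest, by 0.72 ± 0.20 below the untreated wild-type liver, and the treated livers differed by 0.15, within the error. The treatment ratio was 0.38 ± 0.21 in wild-type and 0.95 ± 0.22 in AID transgenic liver, just under 2-fold. It reached 1.02 in AID transgenic liver with a normexp offset of 0, and with median centring it was 1.05 in wild-type and 1.58 in AID transgenic liver, past 2-fold on both arrays.

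Itih3 encodes a heavy chain of the inter-alpha-trypsin inhibitors, which bind hyaluronan. Its log2 level was 15.16 in untreated and 14.55 in treated wild-type liver, and 15.23 in untreated and 14.93 in treated AID transgenic liver. The untreated livers differed by 0.07, within the error of 0.20. The treatment ratio was -0.61 ± 0.21 in wild-type and -0.29 ± 0.21 in AID transgenic liver with loess, and 0.19 and 0.47 with median centring.

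Counted together in the wild-type pair, 5 of the 10 genes were 2-fold lower with treatment (Saa1, Saa2, Saa4, Orm1 and Orm2) and 0 were 2-fold higher, where 1.64% of 16673 measured genes were lower and 1.86% higher. Their median log2 ratio was -0.97, beside 0.03 for all measured genes. In the AID transgenic pair 3 were higher (Saa1, Saa2 and Saa3) and 1 lower (Orm1), where 1.21% of 16708 genes were higher and 0.946% lower, and the median was 0.44. With median centring 2 were higher and 3 lower in wild-type and 6 higher and 0 lower in AID transgenic liver, but the median of all genes was then 0.35 and 0.34. Since these ratios chose the genes, nothing is read from the counts.

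All 10 genes had a higher treatment ratio on the AID transgenic than on the wild-type array, from 0.32 ± 0.30 for Itih3 to 4.98 ± 0.44 for Saa2, beside 49.5% of all 17120 genes. The difference was 2-fold or more for 3, Saa1, Saa2 and Saa4, where 0.929% of genes were higher and 1.05% lower, and Saa3 lay just below at 0.96 ± 0.35 and above it at 1.04 with an offset of 0. In the untreated livers 8 of the 10 were lower in AID transgenic than in wild-type, where 48.9% of 14309 genes were above 0. Without scaling between the arrays 10 of 10 were lower, with the median of all genes at -0.13. With scaling, Saa1 and Saa2 were lower by 2-fold, where 0.294% of 14309 genes were lower and 0.307% higher. Without it Saa4 was as well, where 60 of 14309 genes were lower and 40 higher. In the treated livers Saa1, Saa2 and Saa3 were 2-fold higher in AID transgenic (Saa3 at 0.94 without scaling), where 0.731% of 17092 genes were higher and 0.761% lower. The medians of the 10 genes were 0.70 for the difference, -0.67 for the untreated and 0.35 for the treated contrast, with medians of all genes within 0.01 of 0 after scaling. These contrasts chose the genes too, and the comparisons share the same 4 samples, so they do not support each other.

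**Figure D3:**
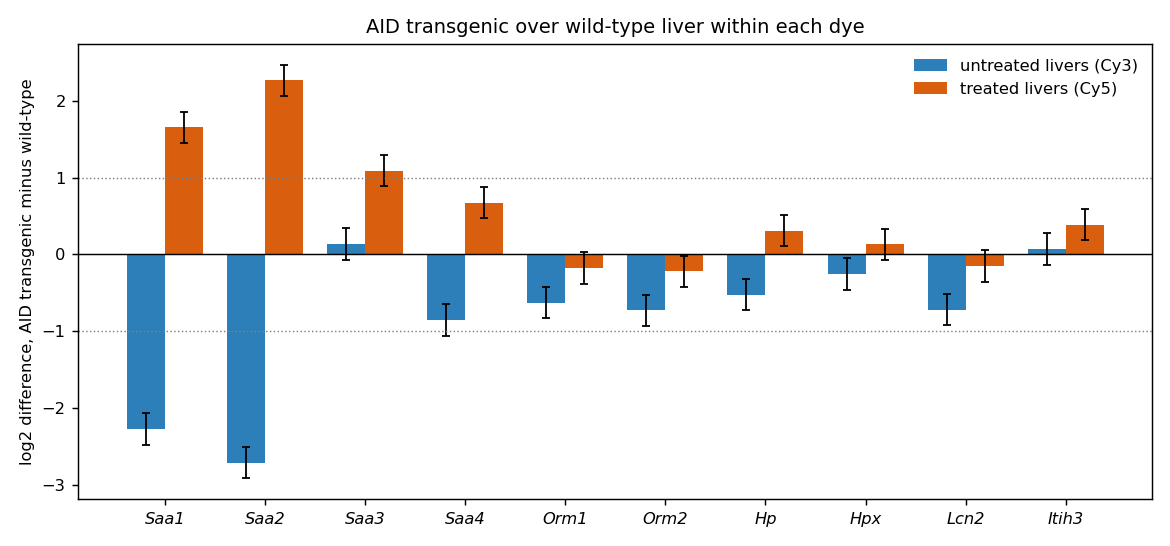
Log2 difference of AID transgenic minus wild-type liver for each gene, in the untreated livers (blue, Cy3) and in the treated livers (orange, Cy5); error bars are the scanner software's error and dotted lines mark 2-fold. Saa1 and Saa2 are far below 0 in the untreated livers (-2.28 and -2.71) and above it in the treated livers (1.66 and 2.27), Saa3 stands apart only in the treated livers (1.09), and Orm1, Orm2 and Lcn2 are below 0 mainly in the untreated livers.

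The share of the array difference that came from the untreated livers was 54.5% to 65.8% for Saa1, Saa2, Saa4, Hp and Hpx. For these the genotypes differed in opposite directions without and with treatment, but the treated difference of Hpx, 0.13 ± 0.20, was within the error. It was 126% to 143% for Lcn2, Orm1 and Orm2, for which the AID transgenic liver was the lower without treatment. Their treated livers differed by -0.15 ± 0.20 for Lcn2 and -0.18 ± 0.20 for Orm1, within the error, and by -0.22 ± 0.20 for Orm2. No excess over the whole difference is therefore read. For Saa3 and Itih3 the untreated livers differed by less than the error, at 0.13 ± 0.21 and 0.07 ± 0.20 and at -0.02 and -0.11 without scaling between the arrays, so no sign of their share is read.

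**Figure D4:**
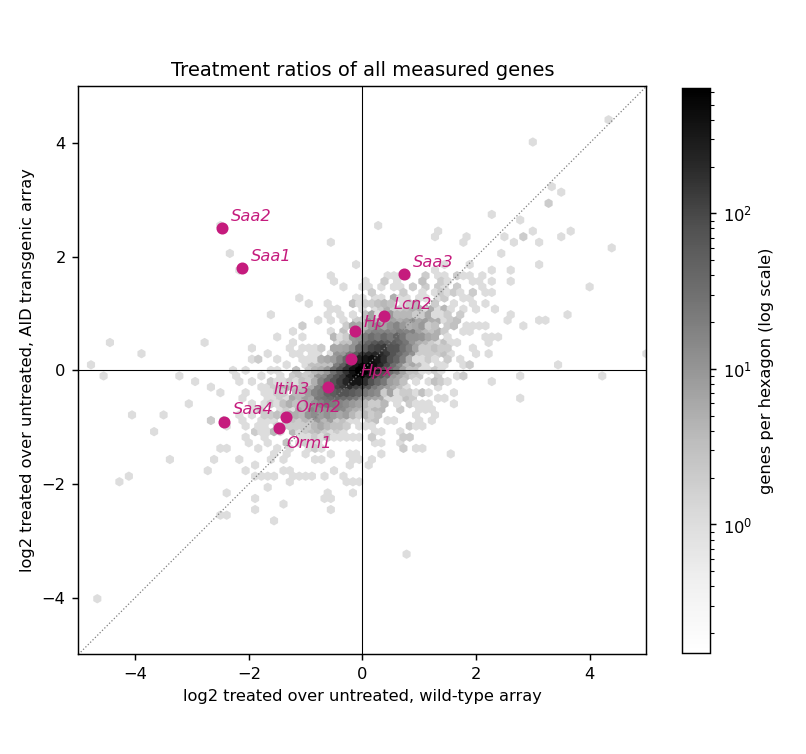
Log2 treatment ratio on the wild-type array (x axis) against that on the AID transgenic array (y axis) for 16261 genes measured on both arrays, as hexagons shaded by the number of genes on a log scale, with the 10 genes as labelled pink points; genes beyond 5 on either axis are not drawn. All 10 points lie above the dotted line of equal ratios, and Saa1 and Saa2 stand in the upper left quadrant away from the bulk of genes.

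Genes near to Saa2 across the 4 livers were sought by a distance that counts the size of a change as well as its direction. Over 13456 genes well above background in all 4 channel values, likeness was taken as the Euclidean distance between the 4 centred log2 levels, and the nearest gene was Saa1 at 0.56. Outside the group, the nearest were Nat8f5 at 0.99, Nat8 at 1.35, Esm1 at 1.46, the mitochondrial COX1 at 1.53 and S100a9 at 1.61. Nat8f5 had treatment log2 ratios of -2.30 in wild-type and 2.07 in AID transgenic liver. Orm1 was nearest to Prodh at 0.08, Fam47e at 0.15, Orm2 at 0.18 and Pfkfb1 at 0.20, and Lcn2 was nearest to E330011O21Rik at 0.12, Gbe1 at 0.12 and Cidec at 0.14. Because the distance grows with the size of the changes, those around Saa2, Orm1 and Lcn2 are not set against each other. These distances rest on 4 values from 2 arrays and are descriptions.

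Of 19 other positive acute phase genes, 1 was 2-fold higher and 4 were 2-fold lower in treated than in untreated wild-type liver. Their median log2 ratio was -0.26, and 1.86% and 1.64% of all genes were higher and lower. In the AID transgenic pair 0 were higher and 3 lower, with a median of -0.33, where 1.21% and 0.946% of all genes were. Lrg1, which encodes leucine-rich alpha-2-glycoprotein, had log2 values of -2.47 ± 0.31 in wild-type, -0.43 ± 0.21 in AID transgenic, -1.02 ± 0.20 between untreated and 1.02 ± 0.20 between treated livers. Steap4, C4b and Lbp were also lower in wild-type, at -1.65, -1.32 and -1.20. With median centring in place of loess 4 of the 19 were higher and 2 lower in wild-type, where 1729 and 102 of 16673 genes were. In AID transgenic liver 0 passed in either direction, where 1358 and 53 of 16708 genes did. Lrg1 then stood at -1.70 and 0.31, so the sign of its AID transgenic ratio turns. Hamp, which encodes the iron hormone hepcidin, went the other way, with 1.15 ± 0.23 in wild-type and -0.21 ± 0.21 in AID transgenic liver, or 1.97 and 0.56 with median centring.

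In the AID transgenic pair the 3 lower genes were Mt1, Mt2 and Fgl1, at -1.39, -1.36 and -1.22, and at -0.69, -0.68 and -0.54 with median centring. Mt1 and Mt2 encode the metal-binding metallothioneins, and their log2 ratios in wild-type were 0.72 and 0.96. The difference between the arrays for the 19 genes had a median of 0.02. It was 2-fold higher for 1 gene and 2-fold lower for 4, where 0.929% and 1.05% of all genes were. Between the untreated livers the median of the 18 measured genes was -0.21, beside -0.003 for all genes.

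Values of closer relatives of the group are descriptions too. Orm3, the third orosomucoid gene, had log2 ratios of 0.33 in wild-type and 0.40 in AID transgenic liver. Of the 6 relatives, which include Itih1, Itih2, Itih4, Itih5 and Ambp, 1 passed 2-fold in any comparison with loess, Itih5 at 1.38 in wild-type. Of all genes, between 0.294% and 1.86% passed in each direction of each comparison. With median centring 2 of the 6 were 2-fold higher in AID transgenic liver, where 1358 of 16708 genes were.

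Of 9 negative acute phase genes, 1 was 2-fold higher and 2 were lower with treatment in wild-type, where 1.86% and 1.64% of all genes were. In AID transgenic liver 0 were higher and 1 lower, where 1.21% and 0.946% of all genes were. Apoa1, the main protein of high-density lipoprotein that serum amyloid A displaces, was lower in both, at -1.79 and -1.84. Alb, encoding albumin, had 0.60 ± 0.21 in wild-type and 0.17 ± 0.20 in AID transgenic liver. With median centring 5 were higher and 1 lower in wild-type and 3 higher and 1 lower in AID transgenic liver, Apoa1 being the lower one at -1.01 and -1.08. Of all genes, 1729 of 16673 were then higher and 102 lower in wild-type, and 1358 of 16708 higher and 53 lower in AID transgenic liver. Between genotypes, 0 of the 9 passed 2-fold in either untreated or treated livers. Of all genes, 0.307% were higher and 0.294% lower in the untreated contrast, and 0.731% and 0.761% in the treated one.

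Among 22 acute phase inducers, receptors and transcription factors, Il1b differed most between the arrays. The log2 ratio of Il1b, interleukin-1 beta, was -0.57 ± 0.23 in wild-type and 2.30 ± 0.37 in AID transgenic liver, a difference of 2.86 ± 0.43. The treated AID transgenic liver was above the treated wild-type liver by 2.42 ± 0.21, while the untreated livers differed by -0.44 ± 0.25. The Il6 probe was not well above background in either untreated liver and differed by -0.10 ± 0.41 between the treated ones.

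Stat3, the transcription factor downstream of interleukin-6, was lower in the untreated AID transgenic than in the untreated wild-type liver by -0.55, with an SD of 0.14 over its 2 probes. Its treatment ratios were -0.68 in wild-type and 0.09 in AID transgenic liver, and -0.20 and 0.52 with median centring. Socs3, the feedback inhibitor of the interleukin-6 pathway, had -0.38 ± 0.21 and 0.28 ± 0.21, and 0.22 and 0.87 with median centring. Cebpb and Cebpd, which encode C/EBP factors, were lower with treatment on both arrays, at -0.80 and -1.13 for Cebpb and -0.92 and -1.19 for Cebpd. In all, 0 of the 22 were 2-fold higher and 2 lower (Il1r1 at -1.42 and Cebpa at -1.12) in wild-type, where 1.86% and 1.64% of all genes were. In AID transgenic liver 1 was higher and 3 lower (Cebpd, Cebpb and Il6ra), where 1.21% and 0.946% of all genes were. With median centring 0 passed in wild-type, where 1729 of 16673 genes were higher and 102 lower. Il1b alone did in AID transgenic liver, at 2.82, where 1358 of 16708 genes were higher and 53 lower. The ratios were then -0.06 and -0.41 for Cebpb and -0.23 and -0.51 for Cebpd, the first within the spot error. Between the untreated livers 0 of 17 measured genes passed 2-fold, where 0.307% of all genes were higher and 0.294% lower.

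Of the 11 genes for receptors and clearance of these proteins, 10 were measured with treatment, and Ager was not well above background in any sample. Cd36, a scavenger receptor, was higher with treatment in both genotypes, at 2.15 ± 0.29 and 1.67 ± 0.27, and lower in the treated AID transgenic than in the treated wild-type liver by -1.41 ± 0.20. Fpr2, a receptor for serum amyloid A, was higher there by 1.09. The remaining genes, such as Cd163 for haptoglobin and haemoglobin, Lrp1 for hemopexin and haem and Slc22a17 for lipocalin 2, stayed within 2-fold in all 5 comparisons with loess.

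Of 12 neutrophil markers, 6 or 7 per sample were well above background, and Mpo, Ngp, Ltf, Cxcr2 and Mmp8 were not so in any sample. Their summed level was 26782 in untreated and 31779 in treated wild-type liver, and 24874 in untreated and 35858 in treated AID transgenic liver. This sum covers all 12 markers, weighs the brightest most and sets Cy3 beside Cy5 levels, so no content of neutrophils is read from it. The 7 measured markers had a median log2 ratio of -0.21 in wild-type and 0.01 in AID transgenic liver. Their median difference between the arrays was 0.22, from -0.44 for Ly6g to 2.11 for S100a9, with 2 of 7 at 2-fold higher beside 0.929% of all genes. Csf3r was at 0.29 and 0.57, Elane at 0.04 and 0.01, Ly6g at 0.22 and -0.22 and Camp at -0.36 and -0.20 on the wild-type and AID transgenic arrays. S100a9, a calcium-binding protein abundant in neutrophils, had log2 ratios of -0.51 ± 0.22 and 1.60 ± 0.27 and S100a8 of -0.30 ± 0.24 and 0.79 ± 0.28 on the wild-type and AID transgenic arrays, a difference of 2.11 ± 0.35 and 1.09 ± 0.36. With median centring the S100a9 ratios were 0.03 and 2.14, so the sign in wild-type turns, and the difference was 2.12. Between untreated livers S100a9 was lower in AID transgenic by -0.79 ± 0.21.

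All 9 macrophage and Kupffer cell markers were well above background in every sample. Their summed level was 14087 and 17223 in untreated and treated wild-type liver and 19104 and 38979 in untreated and treated AID transgenic liver. The brightest genes weigh most in this sum too, and no cell content is read from it. In wild-type 0 of 9 were 2-fold higher with treatment and in AID transgenic 3 were (Cd5l at 1.48, Vsig4 at 1.12 and Clec4f at 1.005), where 1.86% and 1.21% of all genes were. With median centring 2 and 7 were, where 1729 of 16673 and 1358 of 16708 genes were higher. Marco, a scavenger receptor, was higher in the AID transgenic liver already without treatment, by 2.54 ± 0.20, where Saa1 and Saa2 were lower. The median of the 9 between the untreated livers was 0.08. Of the 5 adipocyte markers 0 to 3 per sample were well above background, and Adipoq and Plin1 were not in any. The part of these cells in the values of Saa1, Saa2 and Saa3 was not tested.

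**Figure D5:**
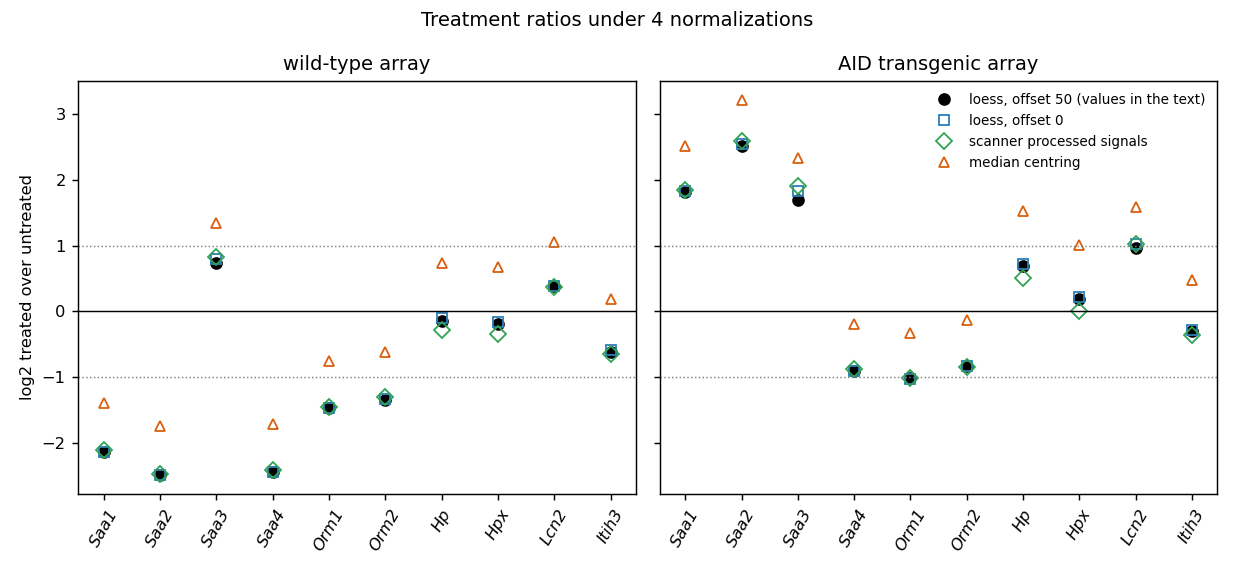
Log2 treatment ratio of each gene on the wild-type array (left) and the AID transgenic array (right) under 4 normalizations: loess with a normexp offset of 50 (filled circles, the values in the text), loess with an offset of 0 (squares), the scanner software's processed signals (diamonds) and median centring (triangles); dotted lines mark 2-fold. Median centring moves every gene upward, yet Saa1 and Saa2 stay below -1 on the wild-type array (-1.39 and -1.75) and above 1 on the AID transgenic array (2.51 and 3.21).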

How the data were processed

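The authors deposited the scanner output of 2 arrays of 1 slide and 1 scan, per the file headers. Mean signals, background medians and processed signals are deposited intensity values, and the processed signals were background-subtracted and dye-normalized by the scanner software, per the file headers. The deposited value table equals the scanner's log10 ratio of red over green on all 44397 features of each array. The deposited error of a log ratio is a score of the software's error model. The headers name Feature Extraction 10.7.3.1, and the submitters' processing notes give 10.5.1.1.

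Background was corrected on the mean signals by normexp (offset 50), and each array was loess-normalized, giving control and outlier spots a weight of 0 (limma 3.58.1, R 4.3.3). Aquantile normalization gave levels and contrasts between arrays. The normalization script was tested on simulated data, which does not bear on the choice between loess and median centring. Probes of a gene were averaged. Of 39429 probes, 30180 were named through RefSeq tables. The number of arrays, 1 per genotype, limits the precision, and no test was made.

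The 10 genes and all lists were chosen with earlier results of these data known. Besides the 10, the text names list genes at 2-fold, at most 4 per list and comparison by size, 13 fixed genes (Alb, Il6, Il1b, Stat3, Socs3, Cebpb, Cebpd, S100a8, S100a9, Hamp, Xist, Ddx3y and Eif2s3y) and the genes nearest to Saa2, Orm1 and Lcn2. Relatives, receptors and marker genes named without passing 2-fold were named after their values were seen. The design also named protein identities, which are not analysed here. Probe sequences and mm9 coordinates come from the scanner files, and promoters with GRCm38.p6 coordinates from RefSeq.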

Additional observations from a re-analysis of the deposited data

Results flagged for a closer look

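The treatment ratios of Saa1 and Saa2 had opposite directions on the 2 arrays. The difference between their treatment log2 ratios, AID transgenic minus wild-type, was 3.93 for Saa1 and 4.98 for Saa2; the ratio was below 0 on the wild-type array and above 0 on the AID transgenic array. With 1 array per genotype this difference was not tested. The treated wild-type liver differed from the other 3 in its sex-linked transcripts, and the part of that in the difference was not tested. The untreated livers, whose sex-linked transcripts matched, differed by -2.28 for Saa1 and -2.71 for Saa2.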

How the results depend on the processing

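No value of the 10 genes that passed 2-fold changed its direction under the 9 alternatives run or in the deposited value table. Median centring in place of loess moved all 20 treatment ratios upward and changed the counts at 2-fold: in wild-type to 2 higher (Saa3 and Lcn2) and 3 lower (Saa1, Saa2 and Saa4), and in AID transgenic liver to 6 higher and 0 lower. The median of all genes was then 0.35 and 0.34, and relative to it Saa1 stood at -1.74 and 2.17 and Saa2 at -2.09 and 2.87. The 30 values of the other 3 comparisons moved by less than their error. Among all genes at 2-fold, the share that was higher went from 53.1% in wild-type and 56.2% in AID transgenic liver to 65.8% and 69.7% with a normexp offset of 0, 72.2% and 76.2% with processed signals and 94.4% and 96.2% with median centring. The numbers of genes at 2-fold, higher and lower, went from 310 and 274 in wild-type to 782 and 406, 1577 and 606, and 1729 and 102 under these settings, and from 203 and 158 in AID transgenic liver to 620 and 269, 1519 and 474, and 1358 and 53. With an offset of 0 and with processed signals they went from 159 and 180 to 376 and 504 and to 802 and 944 for the difference between arrays, from 44 and 42 to 106 and 99 and to 215 and 205 for untreated livers, and from 125 and 130 to 238 and 230 and to 459 and 462 for treated livers. Without scaling between arrays the higher share went from 51.2% to 40.0% in the untreated and from 49.0% to 37.0% in the treated contrast, with 3 of the 10 genes lower and 2 higher there. The cause was not tested. No paired analysis was possible because each group has 1 array.

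All differences rest on 1 liver sample, or pool, per group, and dye and treatment cannot be told apart within an array, since no dye swap was made. The contrasts of genotypes set channels of the same dye on different arrays side by side.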
